A study of Mus musculus with 12 samples.

Results

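The genes described here are 8 genes of acetate use and monocarboxylate transport, Acss1, Acss2, Acly, Acaca, Crat, Slc16a1, Slc16a3 and Slc16a7, out of 33024 gene symbols counted in mouse cerebral cortex. They were chosen by name for their part in moving acetate and other monocarboxylates into brain cells and turning them into acetyl-CoA, and all 8 had enough reads to be tested. C57BL/6 wildtype mice were given a choice between a bottle of ethanol and a bottle of water in the dark phase, a model of binge drinking, to ask what chronic drinking leaves behind in the brain. Cortical RNA was sequenced from 7 Control mice and 5 EtOH mice. Mice entered at 30 days of age. EtOH mice had 20% (v/v) ethanol for 12 h a night over 35 nights, whereas Control mice, labelled Vehicle, had water in both bottles. Both groups then went through 14 days of abstinence and behavioural tests before the brain was taken. Sex was not used here, since the labels do not give it.

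Ethanol is oxidised to acetaldehyde and then to acetate, largely in the liver, and the acetate travels in blood to the brain. Monocarboxylate transporters carry acetate, lactate, pyruvate and ketone bodies across membranes together with a proton. Inside the cell, acetyl-CoA synthetases join acetate to coenzyme A, and the acetyl-CoA can be burnt in mitochondria, built into lipid or used to acetylate proteins, histones among them.

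Total counts ranged from 31768076 to 42183029 per mouse, with Control mouse 5 and EtOH mouse 1 deeper than the other mice. Levels are given in CPM, a gene's reads as a share of its library after scaling. On total counts before that scaling, 3 counts corresponded to at most 0.0944 CPM. Markers of cortical excitatory neurons were present in every mouse, with a summed level of 2672 to 3265 CPM in Control mice and 2666 to 3241 CPM in EtOH mice. Of these 10 markers, 1 was called higher (Fezf2) and 1 lower (Lamp5), with 5 higher and 2 lower on adjusted p alone (edgeR). The libraries also carried transcripts of neighbouring structures, and these moved with the groups. All 12 of 12 striatal markers were called lower in EtOH mice, with a summed level of 353 to 443 CPM against 1122 to 2356 CPM in Control mice. Of 8 hippocampal markers, 7 were called higher, with sums of 130 to 168 CPM against 39.9 to 45.7 CPM. Choroid plexus markers, among them Ttr, summed to 7.70 to 21.9 CPM in Control mice and 11.6 to 990 CPM in EtOH mice, were high in EtOH mice 1, 3 and 4, and 4 of 6 tested were called higher. Among cell types, 1 of 12 astrocyte markers (Gfap) was called higher, with 4 higher and 1 lower on adjusted p alone and sums of 3911 to 4442 CPM against 4208 to 4760 CPM. The mean log2 CPM of the astrocyte list was 7.11 to 7.25 in Control mice and 7.26 to 7.34 in EtOH mice, without overlap. Lower calls were made for 2 of 11 oligodendrocyte markers (4567 to 6064 CPM against 3071 to 5466 CPM), 2 of 11 endothelial markers (280 to 308 CPM against 265 to 291 CPM) and 1 of 10 microglial markers (373 to 421 CPM against 323 to 346 CPM). On adjusted p alone, 9 oligodendrocyte, 2 endothelial and 7 microglial markers were lower (edgeR), and no oligodendrocyte or microglial marker had a positive log2 fold change. None of 6 mural cell markers (193 to 220 CPM against 193 to 213 CPM) and none of 5 blood markers (9.18 to 128 CPM against 9.74 to 74.1 CPM) was called by edgeR, and neither list had a gene at an unadjusted p under 0.05 or a call by DESeq2. No marker was at 0 in all mice. For choroid plexus, results without EtOH mice 1, 3 and 4, which keep only EtOH mice 2 and 5, are given beside the chosen genes. The part of the other shifts in the results that follow was not tested, and in bulk tissue fewer cells of a type and less RNA per cell cannot be told apart.

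**Figure D1:**
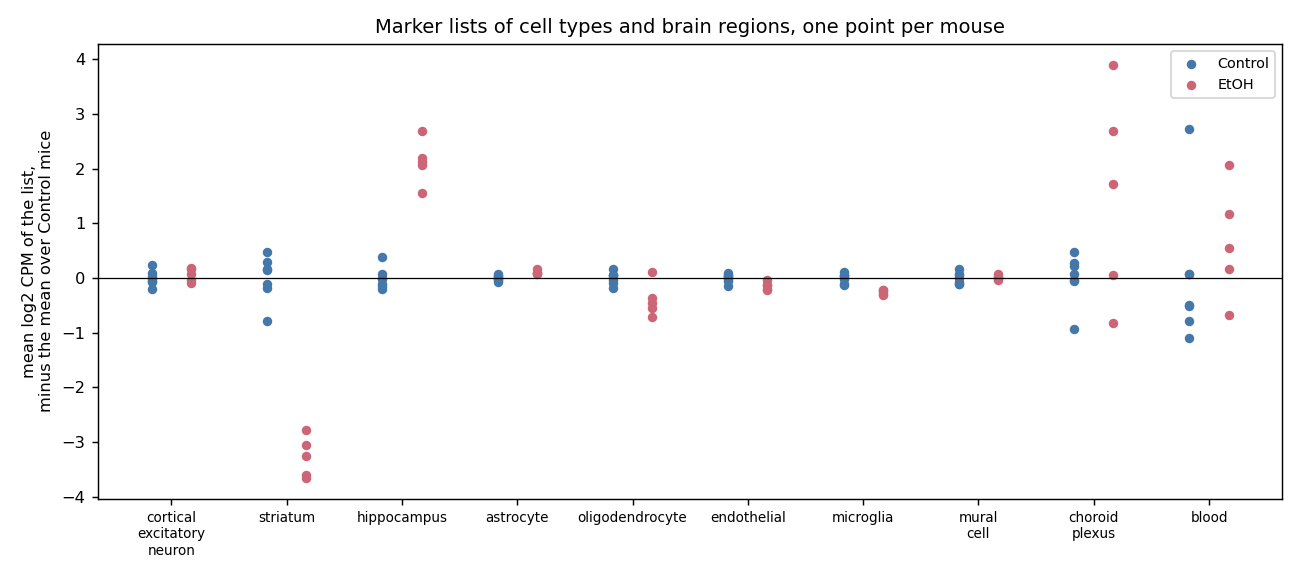
Mean log2 CPM of each marker list minus its mean over Control mice (y axis) for the lists of cell types and neighbouring structures (x axis), with 1 point per mouse in the Control (7) and EtOH (5) groups. Before that subtraction the striatal list lies at 5.18 to 6.45 in Control mice and 2.31 to 3.19 in EtOH mice, the hippocampal list at 0.48 to 1.06 and 2.23 to 3.36, and the cortical neuron list overlaps between groups.

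The mitochondrial acetate-activating enzyme gene Acss1 was 1.45-fold and the lactate exporter gene Slc16a3 1.60-fold higher in EtOH mice. Slc16a1, of a second transporter, was 1.17-fold higher, and the other 5 genes did not pass the test. A gene was called when edgeR's adjusted p was under 0.05 and its log2 fold change (EtOH minus Control) was above 0.5 in size. By that rule 2 of the 8 genes were called higher, against 4.2% of all 16059 genes tested, and 0 were called lower, against 4.09%. At an unadjusted p under 0.05, 4 of the 8 were higher and 0 lower, where 18.6% and 17.9% of all genes tested were, and DESeq2 called the same numbers, 2 higher and 0 lower. By edgeR's adjusted p alone, 3 of the 8 were higher and 0 lower, where 12.1% and 11.6% of all genes were. Of the 8 log2 fold changes 7 were positive, with a median of 0.14, while the median over all genes tested was 7.2e-05.

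**Figure D2:**
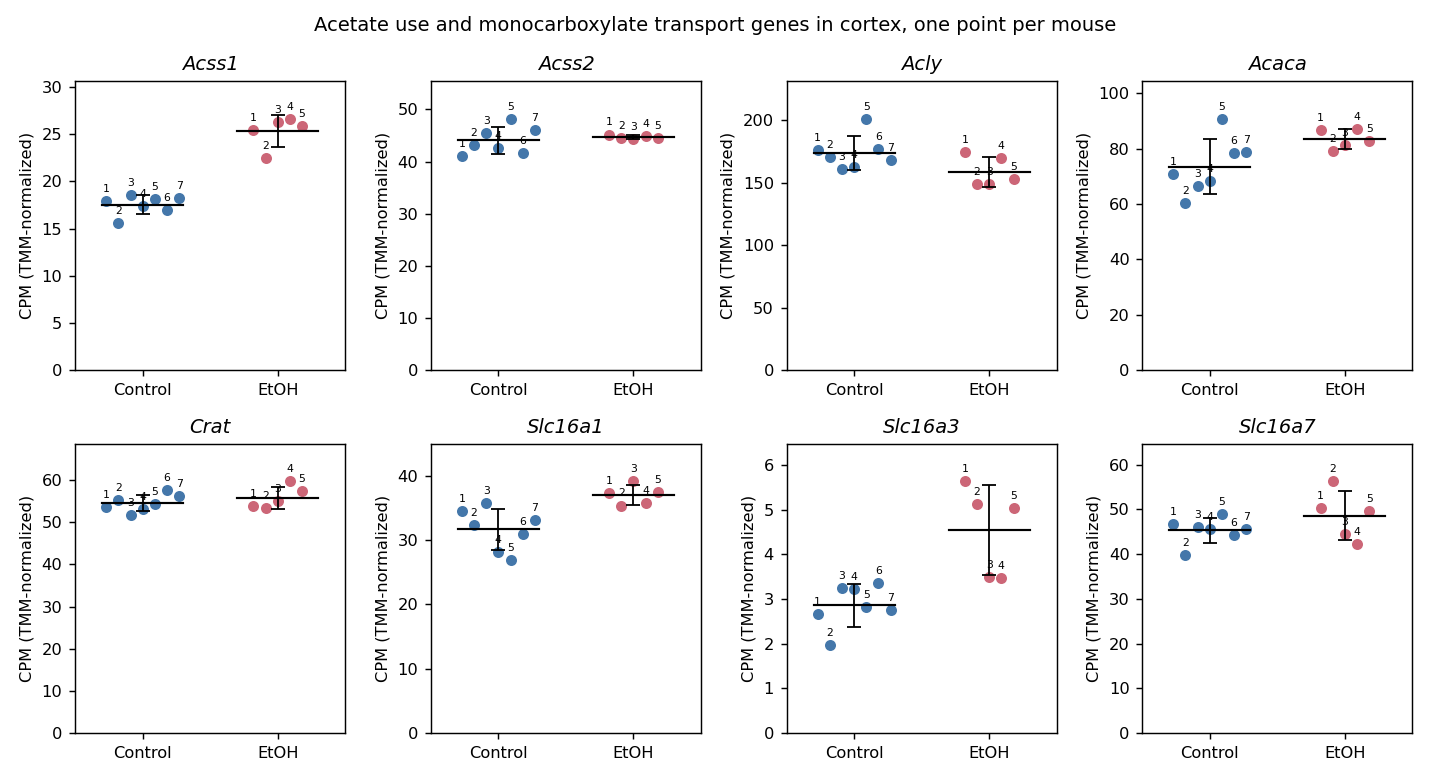
Level in CPM (y axis of each panel) of the 8 genes in every Control (7) and EtOH (5) mouse, 1 point per mouse labelled with its number, with group mean (line) and SD (bars). All 5 EtOH mice lie above all 7 Control mice for Acss1 and Slc16a3, and the groups overlap for the other 6 genes.

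The promoters of the 3 genes that passed on adjusted p are shown to let the sequence at their starts be compared. Each is the 250 bases before the RefSeq start, on the gene's strand, from GRCm38.p6, an older build than GRCm39, which gives the gene positions further on. Capitals mark GGGCGG, the GC box, and ACGTG, the core bound by hypoxia-inducible factors, on either strand, and so also CACGTG, the E-box, which contains ACGTG.
Acss1 (chr2:150668241-150668490, minus strand): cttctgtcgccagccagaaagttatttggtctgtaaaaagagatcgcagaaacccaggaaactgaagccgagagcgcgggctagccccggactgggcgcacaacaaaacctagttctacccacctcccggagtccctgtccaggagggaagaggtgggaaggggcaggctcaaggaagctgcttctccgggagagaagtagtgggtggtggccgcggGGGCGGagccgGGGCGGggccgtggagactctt
Slc16a3 (chr11:120948817-120949066, plus strand): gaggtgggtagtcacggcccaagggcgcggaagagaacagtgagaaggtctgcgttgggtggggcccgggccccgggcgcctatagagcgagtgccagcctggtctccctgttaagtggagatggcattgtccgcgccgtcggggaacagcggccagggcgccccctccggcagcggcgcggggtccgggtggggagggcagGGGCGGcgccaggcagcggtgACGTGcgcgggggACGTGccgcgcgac
Slc16a1 (chr3:104638414-104638663, plus strand): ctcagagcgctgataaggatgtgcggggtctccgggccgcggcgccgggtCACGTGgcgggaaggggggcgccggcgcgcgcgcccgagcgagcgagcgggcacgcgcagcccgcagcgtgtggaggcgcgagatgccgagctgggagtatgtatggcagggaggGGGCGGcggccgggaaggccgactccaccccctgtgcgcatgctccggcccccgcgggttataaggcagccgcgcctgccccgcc

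Acss1 holds 2 matches to GGGCGG and none to ACGTG. Slc16a3 holds 1 match to GGGCGG and 2 to ACGTG. Slc16a1 holds 1 match to GGGCGG and 1 to CACGTG, which gives it 2 to ACGTG, 1 on each strand. Searched on both strands in 32851 windows of this length, GGGCGG was found in 32.7%, ACGTG in 16.6% and CACGTG in 6.02%, so that a match to GGGCGG is common. CCAAT (33.8% of windows) and CACCCCA (6.68%) matched none of these 3 windows. GC content was 61.6% for Acss1, 73.6% for Slc16a3 and 76.4% for Slc16a1, above the median of 52.4%. RefSeq windows were matched for 6 of the 8 genes, all but Crat and Slc16a7. These matches describe the letters and were not tied to any measurement of binding.

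Acss1 encodes the acetyl-CoA synthetase of mitochondria, which feeds acetate to the citric acid cycle. It lies on the minus strand at chr2:150460020-150510420 of GRCm39 (ENSMUSG00000027452), with 14 exons in its main transcript. Its level was 15.6 CPM in the lowest, 17.9 in the median and 18.6 in the highest Control mouse, and 25.5, 22.5, 26.3, 26.6 and 25.9 CPM in EtOH mice 1 to 5. The groups did not overlap, and EtOH mouse 2 was the lowest of its group yet above every Control mouse. All EtOH mice lay above all Control mice for 4.84% of genes tested. Control mice averaged 17.5 ± 1.02 CPM (SD, n = 7) and EtOH mice 25.4 ± 1.68 CPM (SD, n = 5). The log2 fold change was 0.53 with an SE of 0.06 and an adjusted p of 1.26e-05 (edgeR). Leaving out any 1 mouse gave 0.51 to 0.57, and the call held in all 12 of these fits. Without EtOH mice 1, 3 and 4, which carried the choroid plexus transcripts, the log2 fold change was 0.46 with an adjusted p of 0.00668 by edgeR, so that it passed on p and missed the fold minimum. That fit kept only EtOH mice 2 and 5, and without EtOH mouse 2 alone the log2 fold change was 0.57. The part of choroid plexus in the lower value was not tested.

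Acss2 encodes the acetyl-CoA synthetase of cytosol and nucleus, which supplies acetyl-CoA for lipid synthesis and histone acetylation. It lies on the plus strand at chr2:155355679-155428016, with 18 exons. Control mice ran from 41.1 CPM through a median of 43.1 to 48.2 CPM, and EtOH mice 1 to 5 had 45.2, 44.5, 44.4, 45.0 and 44.5 CPM. Every EtOH mouse fell inside the Control range. For Acss2 the log2 fold change was 0.02 (95% interval -0.09 to 0.13, adjusted p = 0.803, edgeR), 0.00 to 0.04 when any 1 mouse was left out and 0.01 without EtOH mice 1, 3 and 4. The difference between the changes of Acss1 and Acss2 was not tested. Within each mouse the ratio of Acss1 to Acss2 reads, per kb of transcript, was 0.293 to 0.353 in Control mice and 0.409 to 0.480 in EtOH mice, without overlap, as for Acss1 alone.

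Acly and Acaca act on the route from citrate to fatty acid. Acly encodes ATP citrate lyase, which splits citrate from mitochondria into acetyl-CoA and oxaloacetate, and it lies on the minus strand at chr11:100367165-100440756 with 28 exons. Control mice had 161 CPM at the lowest, 171 at the median and 201 at the highest, and EtOH mice 1 to 5 had 174, 149, 149, 170 and 153 CPM. EtOH mice 2, 3 and 5 were below every Control mouse and the other two inside the Control range. The log2 fold change was -0.13 (SE 0.06, 95% interval -0.26 to 0.00), and its adjusted p of 0.139 did not pass (edgeR). Without EtOH mice 1, 3 and 4 it was -0.21, with an adjusted p of 0.133 (edgeR).

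Acaca encodes acetyl-CoA carboxylase, which makes malonyl-CoA in the committed step of fatty acid synthesis, and lies on the plus strand at chr11:84020476-84292477 with 56 exons. Control mice had 60.4 CPM at the lowest, 70.9 at the median and 90.8 at the highest, and EtOH mice 1 to 5 had 86.8, 79.1, 81.1, 87.0 and 82.9 CPM. Control mouse 5 was the highest of all mice. The log2 fold change was 0.18 (SE 0.08, 95% interval 0.01 to 0.35) with an adjusted p of 0.105, and without Control mouse 5 it was 0.23 with an adjusted p of 0.0121 (edgeR). Without EtOH mice 1, 3 and 4 it was 0.13, with an adjusted p of 0.516 (edgeR). The ratio of Acly to Acaca reads per kb was 4.61 to 6.10 in Control mice and 3.96 to 4.33 in EtOH mice, lower in every EtOH mouse. Neither gene alone separated the groups, and how often the ratio of a pair of genes does so was not computed.

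Crat encodes carnitine acetyltransferase, which passes acetyl groups between coenzyme A and carnitine. It lies on the minus strand at chr2:30289300-30306340 with 14 exons. Control mice had 51.7 CPM at the lowest, 54.4 at the median and 57.7 at the highest, and EtOH mice 1 to 5 had 53.8, 53.4, 54.9, 59.7 and 57.3 CPM. Only EtOH mouse 4 lay above the Control range, and the log2 fold change was 0.03 (95% interval -0.07 to 0.14, adjusted p = 0.670, edgeR), 0.01 to 0.05 when any 1 mouse was left out and 0.01 without EtOH mice 1, 3 and 4.

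The 3 transporter genes encode MCT1 (Slc16a1), MCT2 (Slc16a7) and MCT4 (Slc16a3). MCT1 is known from endothelium and glia, MCT2 from neurons, and MCT4 from astrocytes, where it exports lactate. Slc16a3 lies on the plus strand at chr11:120838846-120851694 with 6 exons. It was the least abundant of the 8 genes, with 64 to 243 counts per mouse. Control mice had 1.96 CPM at the lowest, 2.81 at the median and 3.35 at the highest, and EtOH mice 1 to 5 had 5.63, 5.13, 3.49, 3.46 and 5.05 CPM. The groups did not overlap, but EtOH mice 3 and 4 lay just above the highest Control mouse. The log2 fold change was 0.67 (SE 0.16, 95% interval 0.34 to 1.01, adjusted p = 0.00519, edgeR), from a mean of 2.86 ± 0.480 CPM (SD, n = 7) to 4.55 ± 1.01 CPM (SD, n = 5). It stayed between 0.59 and 0.76 and called when any 1 mouse was left out, and it was 0.83 with an adjusted p of 0.0118 (edgeR) without EtOH mice 1, 3 and 4.

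Part of Slc16a3 shares its bases with other genes. Of its 11305 annotated exon bases, 4981 are covered on the opposite strand, 4529 by Csnk1d, a protein kinase gene, and 452 by Ccdc57. Of the 4701 bases of its main transcript, 2465 are covered by Csnk1d and 0 by Ccdc57. How the authors' counting treated strand is not given in the sources used here, so reads of Slc16a3 and Csnk1d cannot be told apart over the shared bases. Csnk1d was far more abundant, with a mean of 126 CPM in Control mice and 136 CPM in EtOH mice, and its log2 fold change of 0.11 did not pass the test (SE 0.06, adjusted p = 0.185, edgeR). Ccdc57 had a log2 fold change of 0.24 with an adjusted p of 0.0704 by edgeR. For Crat, 2614 of 10692 exon bases are covered by genes on the other strand, and for Acss2 2291 of 19789. Gss, of glutathione synthesis, is among the latter at a log2 fold change of 0.30 (adjusted p = 0.0142, edgeR). It covers 0 bases of the main Acss2 transcript, whereas Ggt7 covers 197, at a log2 fold change of 0.05 (adjusted p = 0.614, edgeR). Acss1 shares 113 bases with an untested long noncoding RNA, and Slc16a1 shares none.

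Slc16a1 lies on the plus strand at chr3:104545811-104565780 with 5 exons. Control mice had 26.9 CPM at the lowest, 32.3 at the median and 35.7 at the highest, and EtOH mice 1 to 5 had 37.3, 35.4, 39.1, 35.7 and 37.5 CPM. All EtOH mice but mouse 2 were above every Control mouse. The log2 fold change was 0.23 (SE 0.07, 95% interval 0.08 to 0.37, adjusted p = 0.0256, edgeR), under the fold minimum. The adjusted p was 0.0563 without Control mouse 4, 0.0706 without EtOH mouse 3, 0.0568 without EtOH mouse 5, 0.0552 without the 2 deepest libraries and 0.271 without EtOH mice 1, 3 and 4 (edgeR). The log2 fold change was 0.19 to 0.22 in these 5 fits, which hold fewer mice.

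Slc16a7 lies on the minus strand at chr10:125055129-125225463 with 6 exons. Control mice had 39.9 CPM at the lowest, 45.7 at the median and 49.0 at the highest, and EtOH mice 1 to 5 had 50.4, 56.3, 44.4, 42.2 and 49.6 CPM. EtOH mice 1, 2 and 5 were above the Control range and mice 3 and 4 inside it. Its log2 fold change was 0.10 (95% interval -0.05 to 0.25, adjusted p = 0.318, edgeR). It was 0.04 without EtOH mouse 2, the highest, and 0.22 without EtOH mice 1, 3 and 4 (adjusted p = 0.739 and 0.128, edgeR).

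**Figure D3:**
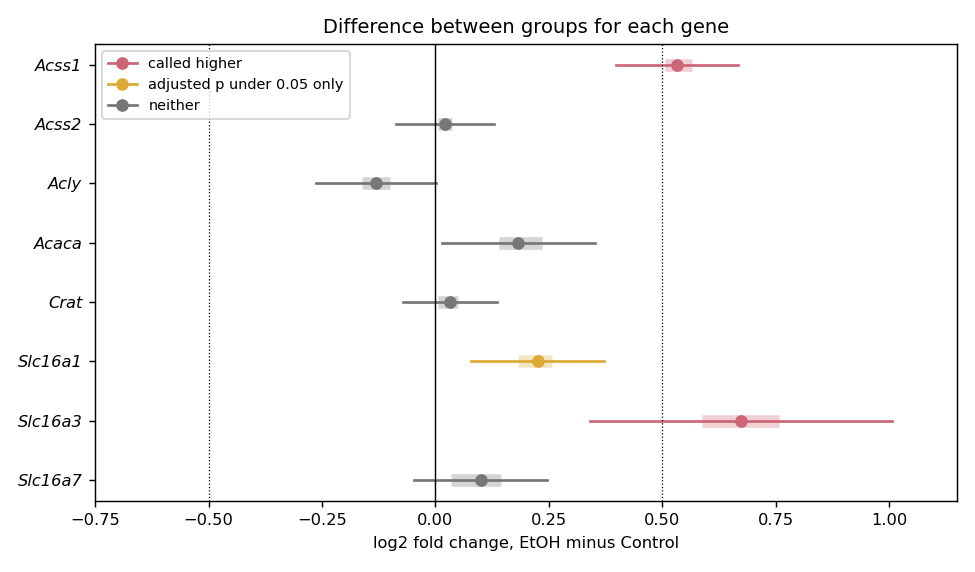
log2 fold change (x axis, EtOH minus Control) of the 8 genes (y axis) with thin bars for 95% intervals from edgeR and thick pale bars for the range when any 1 mouse was left out. Slc16a3 at 0.67 and Acss1 at 0.53 lie past the fold minimum of 0.5, and the intervals of Acss2, Acly, Crat and Slc16a7 include 0.

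Levels of different genes were compared as CPM per kb of main transcript, in Control mice. Acly was the most abundant at 39.5, followed by Acss2 at 14.6 and Crat at 13.5, whose ranges overlapped. Acaca at 7.72 and Slc16a1 at 6.88 overlapped as well, as did Acss1 at 4.72 and Slc16a7 at 4.10, and Slc16a3 came last at 0.608. Divided by all annotated exon bases instead, Acly stayed first at 11.9 and Slc16a3 last at 0.253, but Acss2 moved to 2.23, below Acss1 at 2.44. The order of the middle 6 genes thus depends on which length is used. Between transporters, the ratio of Slc16a3 to Slc16a7 reads per kb was 0.115 to 0.177 in Control mice and 0.185 to 0.263 in EtOH mice, without overlap, as for Slc16a3 alone. That of Slc16a3 to Slc16a1 was 0.0594 to 0.112 against 0.0873 to 0.148, and that of Slc16a1 to Slc16a7 1.32 to 1.94 against 1.51 to 2.11, both with overlap. These ratios are descriptions and carry no test.

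**Figure D4:**
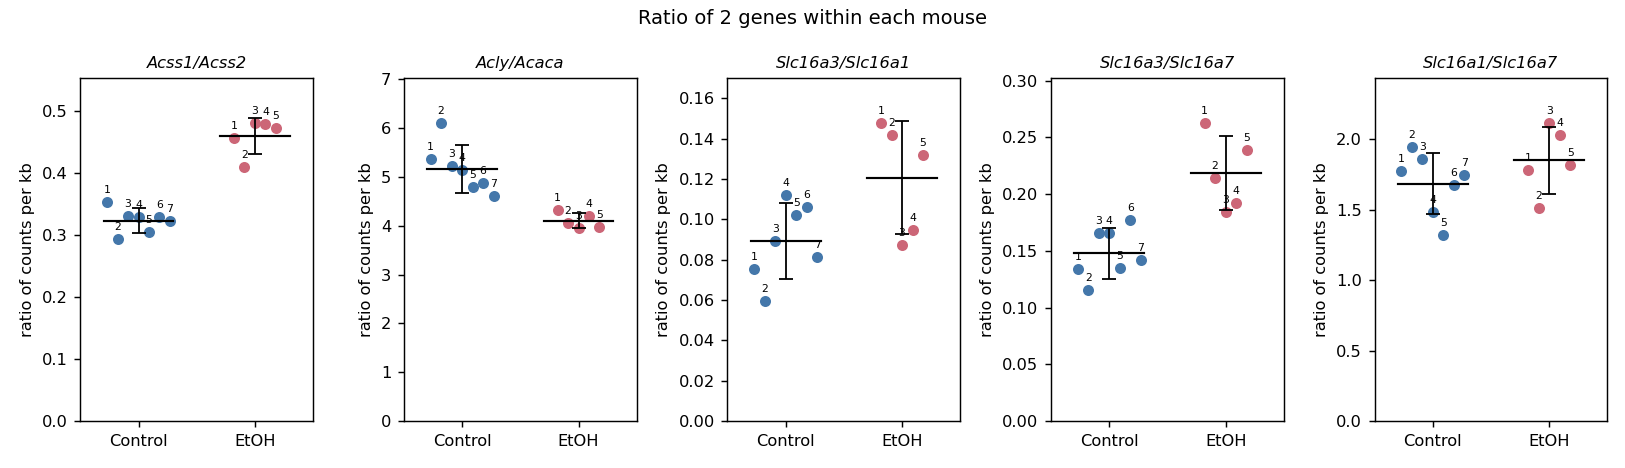
Ratio of reads per kb of main transcript (y axis) between pairs of the 8 genes, 1 numbered point per mouse with group mean and SD, for Control (7) and EtOH (5) mice. Acss1 to Acss2 and Slc16a3 to Slc16a7 are higher and Acly to Acaca lower in every EtOH mouse than in every Control mouse.

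Among 13 tested other monocarboxylate transporters and partner proteins, of 15 listed, 0 were called in either direction by edgeR or DESeq2, with 4 higher and 0 lower at an unadjusted p under 0.05. On edgeR's adjusted p alone 3 were higher and 0 lower, with a median log2 fold change of 0.08. These counts and those of the lists that follow stand against 12.1% of all genes tested higher and 11.6% lower on adjusted p, and 18.6% and 17.9% at an unadjusted p under 0.05. Genes that passed only on adjusted p are named here and in what follows after their values were seen. Emb, which encodes embigin, a partner that brings monocarboxylate transporters to the membrane, had 19.1 ± 2.72 CPM (SD, n = 7) in Control and 26.1 ± 2.25 CPM (SD, n = 5) in EtOH mice (log2 fold change 0.45, adjusted p = 0.00180, edgeR), without overlap between groups. Slc16a11 had 0.33 (adjusted p = 0.00466, edgeR), but 2407 of its 2610 exon bases are shared with Slc16a13 on the other strand. Bsg, basigin, the main partner of MCT1 and MCT4, had -0.08 (adjusted p = 0.354, edgeR).

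Of 14 genes of mitochondrial acetyl-CoA supply, 1 was called lower and 0 higher by edgeR and by DESeq2, with 1 higher and 2 lower at an unadjusted p under 0.05, and the median was 0.02. The called gene was Pdp1, the phosphatase that switches pyruvate dehydrogenase on, with 159 ± 21.7 CPM (SD, n = 7) in Control and 107 ± 10.9 CPM (SD, n = 5) in EtOH mice (log2 fold change -0.56, SE 0.09, adjusted p = 0.000298, edgeR). Pdk1, a kinase that switches the same enzyme off, had 0.15 (adjusted p = 0.0415, edgeR). Of 11 tested genes of acetate supply and the N-acetylaspartate cycle, of 12 listed, 1 was called higher and 0 lower by both tools, with 2 higher and 2 lower at an unadjusted p under 0.05, and the median was 0.0041. Rimklb, which joins N-acetylaspartate to glutamate, rose from 27.9 ± 2.39 CPM (SD, n = 7) to 39.9 ± 1.54 CPM (SD, n = 5), without overlap (log2 fold change 0.51, SE 0.06, adjusted p = 1.6e-05, edgeR). Nat8l, which makes N-acetylaspartate, had -0.22 (adjusted p = 0.0145, edgeR), and Aldh2, which oxidises acetaldehyde to acetate, had 0.0041 (adjusted p = 0.969, edgeR).

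The remaining lists held no gene called by edgeR or by DESeq2. Of 8 genes of lactate and ketone body use, 4 were lower and 0 higher on edgeR's adjusted p, as at an unadjusted p under 0.05, with a median of -0.18. Ldhb, the lactate dehydrogenase subunit that favours lactate use, had 429 ± 39.5 CPM (SD, n = 7) in Control and 312 ± 19.1 CPM (SD, n = 5) in EtOH mice (log2 fold change -0.46, adjusted p = 7.3e-05, edgeR), without overlap. All EtOH mice lay below all Control mice for 2 of the 8 genes, Ldhb and Slc2a1, and for 4.96% of genes tested. Slc2a1, the glucose transporter of the blood-brain barrier, had -0.34 (adjusted p = 0.000952, edgeR) and Ldha, the other lactate dehydrogenase subunit, -0.25 (adjusted p = 0.0109, edgeR). Of 13 genes of citrate export and fatty acid synthesis, 1 was higher and 1 lower on adjusted p, with 2 and 3 at an unadjusted p under 0.05 and a median of -0.09. These were Elovl6, a fatty acid elongase, at 0.35 (adjusted p = 0.00591, edgeR) and Scd1, a desaturase, at -0.36 (adjusted p = 0.00396, edgeR). Of 11 tested genes of the carnitine shuttle and beta-oxidation, of 12 listed, 1 was higher (Cpt1c, 0.19, adjusted p = 0.0141, edgeR) and 1 lower (Crot, -0.20, adjusted p = 0.0333, edgeR), the same at an unadjusted p under 0.05, with a median of -0.05. Of 10 histone acetyltransferases, 2 were higher (Ep300, 0.33, adjusted p = 0.0155, and Kat6a, 0.29, adjusted p = 0.0111, edgeR) and 1 lower (Kat2a, -0.13, adjusted p = 0.0469, edgeR), with 3 and 2 at an unadjusted p under 0.05 and a median of -0.01.

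**Figure D5:**
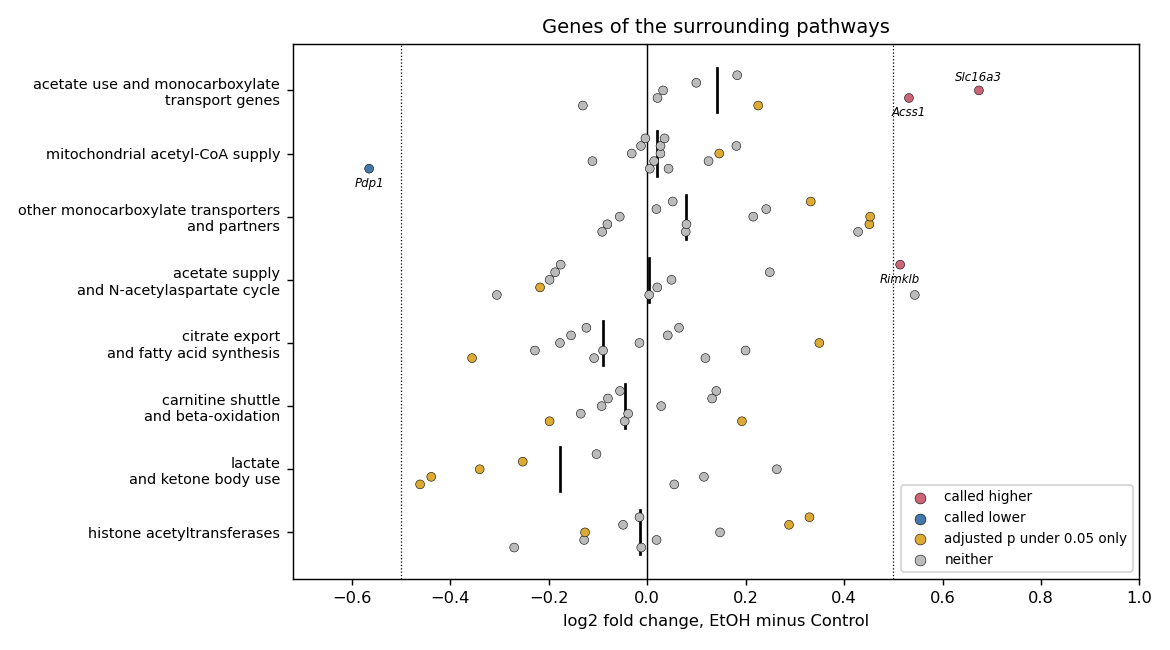
log2 fold change (x axis, EtOH minus Control) of each tested gene in the 8 chosen genes and 7 pathway lists (y axis), 1 point per gene, with the median of each list as a bar, the fold minimum of 0.5 dotted and names beside called genes. Acss1, Slc16a3 and Rimklb lie above the fold minimum and pass on adjusted p, Pdp1 lies below -0.5, and the median of the lactate and ketone list, -0.18, is the lowest of the lists.

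The genes whose levels followed those of the called genes most closely were sought over 12 mice, after subtracting each group's mean log2 CPM, among 14173 genes. For Acss1 these were Slc6a7, a proline transporter, with a Pearson r of 0.91, and Ptprk and Raph1, each with 0.90. For Slc16a3 they were AW822252 with 0.87, and Brwd1 and Osbpl3, each with 0.84. Being the highest of so many genes, and sharing library and depth, these values are descriptions. Between the chosen genes, the same measure was 0.75 for Slc16a3 and Slc16a7, 0.71 for Acly and Acaca and 0.36 for Acss1 and Acss2. Other pairs reached down to -0.55, for Crat and Slc16a7, and Acss1 had 0.48 with Acaca, so the genes did not all vary together.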

How the data were processed

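Cortical RNA from 12 mice was sequenced. The authors checked reads with FastQC 0.11.9, aligned them to GRCm39 with STAR and Gencode Release 28, and counted them per gene with featureCounts, whose strand and multi-mapping settings are not given in the sources used here. The authors deposited 1 table of counts per gene symbol, without normalization, treated here as estimated counts because 61 symbols have fractional values, whose origin is unknown. Counts were rounded to whole numbers. Columns were matched to mice by name, with 0 left over.

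Genes were kept with edgeR's filterByExpr (16059 genes), scaled with TMM factors and tested with edgeR's quasi-likelihood F test, with Benjamini-Hochberg adjustment over all genes (R 4.3.3, edgeR 4.0.16, limma 3.58.1). Calls needed both an adjusted p under 0.05 and a change of more than 0.5 on the log2 scale, as in the legend of the study's volcano plot. The SE is the size of the log2 fold change over the square root of F. CPM used TMM library sizes. log2 CPM used a prior count of 2. Gene positions, exons and transcript lengths came from Gencode release 39 of GRCm39, newer than the authors' annotation, and promoters from RefSeq. The test was checked on artificial counts in which 200 genes changed by 1 on the log2 scale. edgeR recovered 185 of them with 6 false calls, and smaller changes were not checked. DESeq2 1.42.0, limma voom, other scalings, filters and fold minimums, a replicate block and leaving out each mouse were alternatives.

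The members and lists were chosen with earlier results of these data known. Of each pathway list, genes called were named, and others after their values were seen. Some genes of the lists are counted but not reported here by name. For each called member, the 3 genes with the highest r were named, among genes with a mean of at least 1 CPM.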

Additional observations from a re-analysis of the deposited data

Results flagged for a closer look

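Of 52 groups of values examined, 9 held a mouse far from the rest of its group, where chance gives about 2.6. For Acly, Control mouse 5 had a log2 CPM of 7.65 against a group median of 7.42. For Slc16a3, Control mouse 2 had a log2 CPM of 1.01 against a median of 1.52. For Acss1, EtOH mouse 2 had a log2 CPM of 4.49 against a median of 4.70. Among list means of log2 CPM, choroid plexus stood at -0.44 in Control mouse 7 (median 0.56), blood at 3.79 in Control mouse 6 (median 0.57), mitochondrial acetyl-CoA supply at 6.09 in EtOH mouse 1 (median 6.02) and astrocyte at 7.34 in EtOH mouse 3 (median 7.27). Total counts stood apart in Control mouse 5, at 40690223, and in EtOH mouse 1, at 42183029.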

How the results depend on the processing

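Acss1 and Slc16a3 kept their direction and their call under DESeq2, limma voom, upper quartile or relative log expression scaling, other count filters, the replicate block and each leave-one-out fit, with the members called higher 2 to 2 and lower 0 to 0 when any 1 mouse was left out. Genes called higher ran from 576 to 783 and lower from 586 to 727 in those fits. With no fold minimum, 1947 genes were higher and 1863 lower. With a log2 fold change above 1, 242 were higher and 282 lower, and 0 of the 8 members were higher. Without EtOH mice 1, 3 and 4, chosen after seeing the data, 397 genes were higher and 1 of the 8 members (Slc16a3). Leaving out the 2 deepest libraries was likewise chosen after seeing the data. Mice of the same number did not deviate together (r from -0.11 to 0.02, and 0 of 5 correlated best with its own number). The counts thus gave no sign that numbers pair mice, but this cannot exclude a pairing that left no trace in them. The replicate block gave 689 genes higher, 621 lower and 2 of the 8 members higher, and Acaca passed on adjusted p there (0.0493, edgeR). Slc16a3 rested on 64 to 243 reads per mouse, the fewest of the 8 members.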
